A study of Mus musculus with 7 samples.

Results

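The LIF receptor and STAT3 pathway was followed through 10 genes in mouse fibroblasts, induced pluripotent stem (iPS) cells and embryonic stem (ES) cells. The genes were the receptor chains Lifr, Il6st and Osmr, the signal transducers Jak1 and Stat3, and the STAT3-linked target genes Socs3, Junb, Pim1, Pim3 and Bcl3. All 10 were found among the 19938 genes that the array measured through a probe set with 1 gene symbol, and where a gene had several such probe sets the one with the highest mean over the 7 arrays was taken.

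Each array was loaded with RNA of 1 culture, and values are log2 expression, so that a difference of 1 is a change of 2-fold. ES cells of the OG2 background, a mouse line with a green fluorescent reporter of Oct4, gave 1 array in N2B27 medium with 2i, the usual name for a MEK inhibitor combined with a GSK3 inhibitor. The iPS line O4-1 gave 1 array in the same 2i medium. The iPS lines O4-1, O4-2 and O4-4 gave 3 arrays in the medium called KSR, and all iPS lines came from mouse embryonic fibroblasts (MEFs) infected with Oct4. MEFs from embryos of 129/OG2 mice taken 13.5 days after conception gave 1 array in the medium called iCD1 and 1 array in medium with FBS. The labels do not say whether LIF was added to any of these media, nor whether the cultures had feeder cells. The source given for the ES sample is fibroblasts and that of the iPS samples names iCD1, so groups follow the titles and growth conditions.

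LIF, the cytokine long used to keep mouse ES cells undifferentiated, binds LIFR, which pairs with the shared signalling chain gp130, encoded by Il6st. The related cytokine oncostatin M signals in mice through OSMR with the same gp130 chain. JAK kinases bound to these chains phosphorylate the transcription factor STAT3, which enters the nucleus and switches on target genes, among them its own feedback inhibitor Socs3. The arrays report RNA and do not report phosphorylated STAT3.

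The labelled cell types were checked against marker genes. The mean level of 8 pluripotency markers (Pou5f1, Nanog, Sox2, Zfp42, Esrrb, Dppa5a, Sall4 and Tdgf1) lay between 9.85 and 10.43 on the 5 pluripotent arrays and between 4.15 and 4.16 on the MEF arrays. The mean of 8 fibroblast markers (Thy1, Pdgfra, Pdgfrb, Col1a1, Col1a2, Col3a1, Twist2 and Prrx1) lay between 6.24 and 7.13 on the pluripotent arrays and between 9.95 and 10.16 on the MEF arrays. Both lists ran with the labels. Array medians lay between 4.97 and 5.03, and with 7 arrays, of which only the KSR lines are replicates, the number of arrays limits the precision of every value.

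The receptor genes Osmr and Lifr are neighbours on chromosome 15, with no protein-coding gene between them in RefSeq, and they behaved unlike each other in these cultures. Their RefSeq promoter windows (250 bases before to 50 after a transcript start, build GRCm38.p6) are shown for that reason, with that of Socs3, the feedback target. The Osmr window is chr15:6874264-6874563 on the minus strand, the Lifr windows at 2 transcript starts are chr15:7129322-7129621 and chr15:7140292-7140591 on the plus strand, and the Socs3 window is chr11:117969317-117969616 on the minus strand. Capitals mark matches on either strand to TTCNNNGAA (a STAT motif), TGANTCA (an AP-1 motif), CCAAT (the CCAAT box) or TATAAA (the TATA box), which do not overlap here.
Osmr: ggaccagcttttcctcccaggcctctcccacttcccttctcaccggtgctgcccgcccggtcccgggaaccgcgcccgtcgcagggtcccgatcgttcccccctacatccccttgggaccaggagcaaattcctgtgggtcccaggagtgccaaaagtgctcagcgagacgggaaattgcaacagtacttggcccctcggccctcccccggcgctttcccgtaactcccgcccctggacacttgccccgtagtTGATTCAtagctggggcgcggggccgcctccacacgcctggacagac
Lifr first start: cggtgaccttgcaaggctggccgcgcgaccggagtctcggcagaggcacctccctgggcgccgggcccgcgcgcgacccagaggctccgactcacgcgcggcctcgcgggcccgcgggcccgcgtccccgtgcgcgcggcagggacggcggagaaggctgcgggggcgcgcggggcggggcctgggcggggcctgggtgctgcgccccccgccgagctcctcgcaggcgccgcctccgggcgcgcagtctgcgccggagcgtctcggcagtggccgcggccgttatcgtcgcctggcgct
Lifr second start: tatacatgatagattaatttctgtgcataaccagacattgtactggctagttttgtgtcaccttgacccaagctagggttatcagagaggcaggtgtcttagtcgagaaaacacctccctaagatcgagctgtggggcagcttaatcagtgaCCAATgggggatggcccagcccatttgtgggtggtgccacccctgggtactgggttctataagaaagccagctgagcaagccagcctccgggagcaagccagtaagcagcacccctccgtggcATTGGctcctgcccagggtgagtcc
Socs3: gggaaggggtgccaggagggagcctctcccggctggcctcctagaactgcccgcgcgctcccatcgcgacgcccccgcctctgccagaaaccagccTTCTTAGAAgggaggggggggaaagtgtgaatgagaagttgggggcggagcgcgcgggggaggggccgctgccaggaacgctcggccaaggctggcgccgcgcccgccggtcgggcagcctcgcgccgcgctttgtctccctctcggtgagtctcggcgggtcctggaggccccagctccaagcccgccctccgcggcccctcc

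All 10 genes had a window, 12 in all, since Lifr and Pim1 had 2 each. Socs3 was the gene among the 10 whose window held the STAT motif, with its first base at -154 from the start, and 8.30% of all 32851 windows of this length held it. The Osmr window held an AP-1 motif, as 7.81% of all windows did. The first Lifr window held none of these 4 motifs and 53 CpG dinucleotides. The second held a CCAAT box on each strand and 4 CpG. The Osmr window held 22 CpG, against a median of 7 and an upper quartile of 20 over all windows. High counts were not particular to Lifr and Osmr. Pim1 held 42 (5 in its second window), Pim3 40, Il6st 33, Socs3 31, Jak1 29, Bcl3 26, Junb 21 and Stat3 15. Jak1, Stat3, Il6st, Junb and Pim3 held CCAAT, which 37.4% of all windows held, and Junb also held TATAAA, in 13.6% of all windows.

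The receptors came first in the comparison of the iPS lines in KSR with MEFs, which asks how the pathway differs between cells reprogrammed with Oct4 and the cell type they came from. Cell type and medium changed together, as no MEF array was in KSR. Osmr, which encodes the oncostatin M receptor chain, stood at 5.20 (O4-1), 5.30 (O4-2) and 5.61 (O4-4) in the iPS lines and at 8.36 and 8.65 in MEFs in iCD1 and in FBS. All 3 iPS lines lay far below both MEF arrays. Osmr fell by 3.14 ± 0.16 (SE; limma, adjusted p = 0.00702), which is 8.79-fold lower. The SE here and below rests on the spread among the 3 KSR lines, and the spread between the MEF arrays does not enter it. In bulk RNA, fewer cells that express a gene and less RNA per cell cannot be told apart. Il6st, which encodes gp130, was at 8.16, 7.89 and 8.79 in the 3 lines and at 9.88 and 10.16 in MEFs in iCD1 and in FBS. The groups did not overlap, and line O4-4 came nearest to the MEFs. Il6st fell by 1.74 ± 0.33 (SE; limma, adjusted p = 0.0359), 3.33-fold lower.

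Lifr did not pass the test. It was at 7.12, 6.58 and 7.53 in the KSR lines O4-1, O4-2 and O4-4 and at 7.30 and 6.26 in MEFs in iCD1 and in FBS, so the groups overlapped. The iPS mean was 7.07 ± 0.48 (SD, n = 3) and the MEF mean 6.78, a difference of 0.30 ± 0.33 (SE; limma, adjusted p = 0.593). The 95% interval of that difference runs from -0.67 to 1.26, so a modest fall and a rise of 2-fold both lie within it. The sign depended on the fibroblast medium: relative to MEFs in iCD1 alone the difference was -0.23, and relative to MEFs in FBS alone it was 0.82.

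Both transducers fell. Jak1, a kinase bound to gp130, was at 7.12, 7.33 and 7.33 in the KSR lines O4-1, O4-2 and O4-4 and at 9.31 and 9.76 in MEFs in iCD1 and in FBS. It fell by 2.28 ± 0.11 (SE; limma, adjusted p = 0.00668), 4.85-fold lower, and it varied little among the lines (SD 0.12). Stat3 itself was at 7.88, 7.72 and 8.14 in the 3 lines and at 9.28 and 8.97 in MEFs in iCD1 and in FBS. No iPS line reached the lower MEF array. Stat3 fell by 1.21 ± 0.16 (SE; limma, adjusted p = 0.0187), 2.32-fold lower.

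The target genes went in different directions. Pim1, a serine/threonine kinase gene that STAT3 induces and that favours survival and self-renewal of ES cells, was at 8.49, 8.52 and 8.94 in the 3 lines and at 6.65 and 7.32 in MEFs in iCD1 and in FBS. It rose by 1.67 ± 0.19 (SE; limma, adjusted p = 0.0137), 3.17-fold higher. Its relative Pim3, a kinase of the same family, was at 7.23, 7.27 and 7.15 in the KSR lines O4-1, O4-2 and O4-4 and at 6.35 and 6.78 in MEFs in iCD1 and in FBS. Pim3 rose by 0.65 ± 0.09 (SE; limma, adjusted p = 0.0194), 1.57-fold higher, and had the smallest range over the KSR lines of the 10 genes (0.12). Both Pim genes lay above the MEFs in every iPS line.

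Socs3, Junb and Bcl3 did not pass the test. Socs3, the inhibitor that binds gp130 and JAK kinases and ends the signal, was at 6.59, 6.84 and 6.999 in the KSR lines O4-1, O4-2 and O4-4 and at 7.31 and 6.97 in MEFs in iCD1 and in FBS. Line O4-4 was just above MEFs in FBS and the other lines below both MEF arrays, and the difference was -0.33 ± 0.16 (SE; 95% interval -0.80 to 0.13; limma, adjusted p = 0.231). A second Socs3 probe set lay between 4.90 and 5.28 on all 7 arrays, and with the mean of both probe sets the difference was -0.11. Junb, an AP-1 transcription factor gene of the early response, was at 5.95, 6.21 and 6.07 in the 3 lines and at 6.79 and 6.31 in MEFs in iCD1 and in FBS. Its groups did not overlap, and the difference was -0.47 ± 0.12 (SE; 95% interval -0.82 to -0.13; limma, adjusted p = 0.0669). Bcl3, which encodes a nuclear cofactor of the IkappaB family, was at 6.402, 6.39 and 6.98 in the KSR lines O4-1, O4-2 and O4-4 and at 6.78 and 6.17 in MEFs in iCD1 and in FBS. The groups overlapped, and the difference was 0.12 ± 0.24 (SE; 95% interval -0.58 to 0.83; limma, adjusted p = 0.776).

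In all, 6 of the 10 genes passed an adjusted p of 0.05 in limma, 2 higher and 4 lower in the iPS lines, where 26.4% of all genes tested passed, 12.1% higher and 14.3% lower. The median difference of the 10 was -0.40 and that of all genes 0.00. These calls rest on few arrays. When O4-1 was left out, or when O4-2 was, limma called 0 of the 10 and 0 of all genes, although 6 and 7 of the 10, and 5804 and 6924 of all genes, had an unadjusted p under 0.05, against 7 of the 10 and 39% of all genes with every line. When O4-4 was left out 5 were called, all but Pim3, among 2776 of all genes. Set against the FBS culture of MEFs alone, 3 were called (Osmr, Jak1 and Pim1) among 2968 of all genes, and against the iCD1 culture alone 5 among 3947. Il6st was past the threshold with neither MEF array alone (limma, adjusted p = 0.0677 with FBS and 0.0812 with iCD1).

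**Figure D1:**
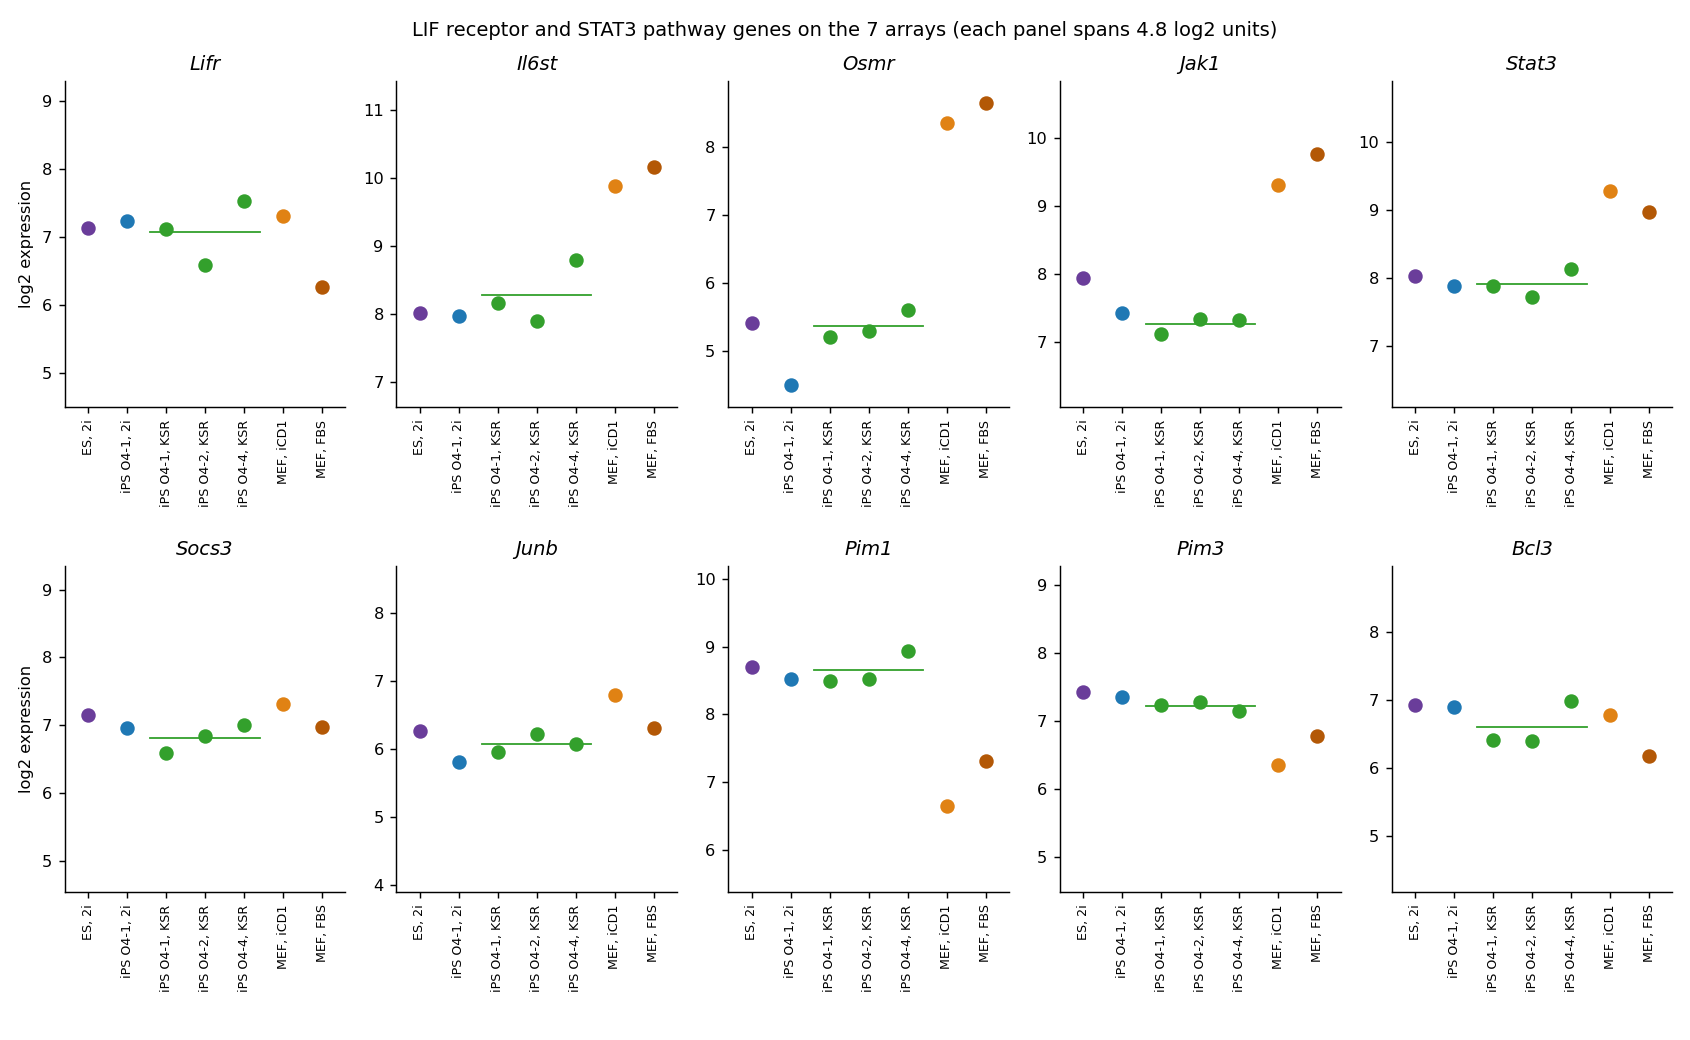
Log2 expression (y axis) of the 10 genes on each of the 7 arrays (x axis), 1 point per array, with a line at the mean of the 3 KSR lines. Osmr, Il6st, Jak1, Stat3 and Junb lie lower in every pluripotent culture than in both MEF cultures, Pim1 and Pim3 lie higher, and Lifr, Socs3 and Bcl3 overlap.

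The cultures in 2i medium lay on the same side of the MEFs as the KSR lines for most of the 10 genes. Over the 5 pluripotent arrays, 5 of the 10 genes lay below both MEF arrays (Il6st, Osmr, Jak1, Stat3 and Junb), 2 lay above both (Pim1 and Pim3) and 3 overlapped, where 22.0% of all genes lay below, 21.9% above, and 43.9% did not overlap in one direction or the other. The plot of values by array shows this split. Osmr ran from 5.61 in O4-4 down through ES cells (5.41), O4-2 and O4-1 to 4.49 in O4-1 in 2i. Neighbours among the first 4 in that order differed by less than the SD of the KSR lines (0.21), and O4-1 in 2i lay 0.71 below O4-1 in KSR. The value of 4.49 lay below every array median (4.97 or more), where signal and background are not separated.

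The cultures in 2i were set against the iPS lines in KSR. For ES cells, which have no array in KSR, the origin of the cells and the medium cannot be told apart. The comparison has a single array in each 2i group that the fit assumed to vary like the KSR lines. Among receptors, Lifr was at 7.13 in ES cells in 2i and 7.22 in O4-1 in 2i, against a KSR mean of 7.07 ± 0.48 (SD, n = 3). Il6st was at 8.01 in ES cells and 7.97 in O4-1 in 2i, against 8.28 ± 0.47. Both 2i cultures lay within the range of the KSR lines for these genes. Osmr was at 4.49 in O4-1 in 2i, below all KSR lines at 5.37 ± 0.21, a difference of -0.88 ± 0.21 (SE, n = 1 against 3; limma, unadjusted p = 0.0166, adjusted p = 0.727). In ES cells in 2i it was at 5.41, within the KSR range, with a difference of 0.04 ± 0.21 (SE; limma, adjusted p = 0.974).

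No transducer or target passed the test. Jak1 was at 7.94 in ES cells and 7.42 in O4-1 in 2i, both above the KSR lines at 7.26 ± 0.12 (SD, n = 3), and the difference of ES cells was 0.68 ± 0.14 (SE; limma, unadjusted p = 0.0116, adjusted p = 0.571). Stat3 was at 8.04 in ES cells and 7.88 in O4-1 in 2i, against 7.91 ± 0.21 in KSR, and no 2i array left the range of the KSR lines. Socs3 was at 7.15 in ES cells and 6.96 in O4-1 in 2i, against 6.81 ± 0.21 in KSR. The ES array was above every KSR line and the O4-1 array was not. Junb was at 6.26 in ES cells and 5.80 in O4-1 in 2i, on either side of the KSR lines at 6.08 ± 0.13. Pim1 was at 8.70 and 8.52 in ES cells and in O4-1 in 2i, against 8.65 ± 0.25 in KSR, and Bcl3 at 6.92 and 6.90, against 6.59 ± 0.34. Pim3 was at 7.42 in ES cells and 7.35 in O4-1 in 2i, above all KSR lines at 7.21 ± 0.06.

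limma called 0 of the 10 genes for O4-1 in 2i, 0 for ES cells in 2i and 0 for both 2i cultures together against the KSR lines, as it called 0% of all genes tested in each of these comparisons. At an unadjusted p under 0.05 there was 1 of 10 in each, Osmr for O4-1 and Jak1 for ES cells and for both together (0.42 ± 0.11, SE; limma, unadjusted p = 0.0248), where 6.72%, 8.76% and 9.02% of all genes passed. The share of the 10 is close to these backgrounds, and the Osmr value of O4-1 in 2i lay below every array median. Jak1 and Pim3 were the members with both 2i arrays above all KSR lines, as 12.9% of all genes were, and 0 members had both below, against 13.1% of all genes. The 95% intervals are wide, from -1.07 to 1.37 for Lifr in O4-1 in 2i and from -0.24 to 0.93 for Socs3 in ES cells, so these arrays leave room for changes of more than 2-fold in Lifr.

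**Figure D2:**
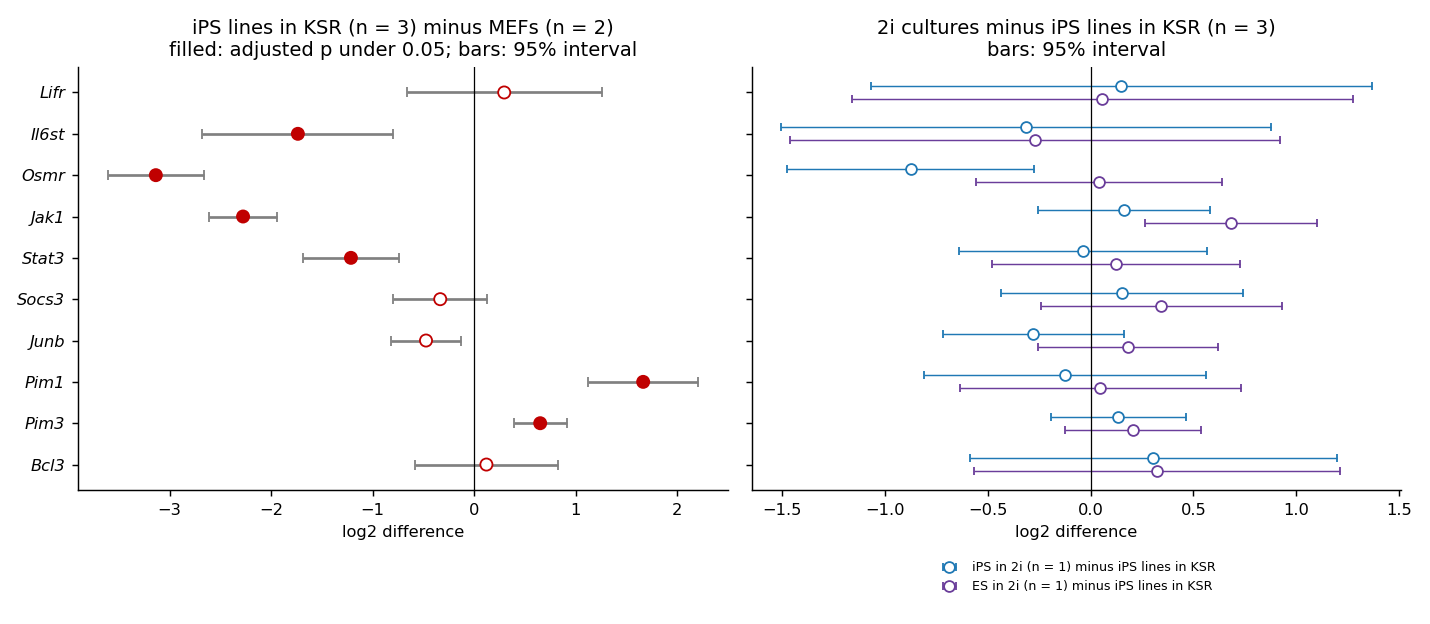
Log2 differences (x axis) of the 10 genes (y axis) with 95% intervals from limma, for the iPS lines in KSR minus MEFs (left) and for ES cells and O4-1 in 2i minus the KSR lines (right). Osmr, Il6st, Jak1 and Stat3 lie below 0 and Pim1 and Pim3 above 0 on the left with filled points, and on the right no gene passed an adjusted p of 0.05.

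Line O4-1 was measured in both media, 1 array each and so without a test. In 2i minus KSR its largest difference among the 10 genes was that of Osmr (-0.71), followed by Bcl3 (0.50), Socs3 (0.37) and Jak1 (0.30). The Osmr value of O4-1 in 2i (4.49) lay below every array median, where signal and background are not separated. Lifr differed by 0.10, Il6st by -0.19, Stat3 by -0.01, Junb by -0.15, Pim1 by 0.03 and Pim3 by 0.12. None of the 10 reached 2-fold, as 1.43% of all genes did. ES cells minus O4-1 cells, both in 2i, differed most in Osmr (0.92), then in Jak1 (0.52) and Junb (0.46), and the ES value was the higher for 9 of the 10, with Lifr the exception (-0.09). Again none of the 10 reached 2-fold, as 0.978% of all genes did. The median of this difference was 0.17 for the 10 and -0.01 for all genes. The share of all genes higher in ES cells was not counted. Of the markers above, 7 of 8 fibroblast markers and 3 of 8 pluripotency markers were higher in ES cells.

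Among the KSR lines, O4-4 had the highest value for 7 of the 10 genes (Lifr, Il6st, Osmr, Stat3, Socs3, Pim1 and Bcl3), where it was highest for 34.4% of all genes. It was the lowest for Pim3 alone, where it was lowest for 34.5% of all genes. The ranges over the lines ran from 0.12 for Pim3 to 0.95 for Lifr. The means of the pluripotency and the fibroblast marker lists were also highest in O4-4 among the KSR lines, with values of 10.35 against 10.08 and 9.85 in O4-1 and O4-2 for the pluripotency list, and of 7.13 against 6.77 and 6.78 for the fibroblast list. Members of both lists went either way. In O4-4, 5 of the 8 fibroblast markers were highest of the KSR lines (Col1a1, Col1a2, Col3a1, Pdgfrb and Prrx1) and 3 were lowest (Thy1, Pdgfra and Twist2), and 6 of the 8 pluripotency markers were highest and 2 were lowest (Pou5f1 and Tdgf1). Over the 5 pluripotent arrays the fibroblast list mean had the same order as Osmr, with 7.13 in O4-4, 6.82 in ES cells, 6.78 in O4-2, 6.77 in O4-1 and 6.24 in O4-1 in 2i. Taken singly, 2 of the 8 markers had that order, Col1a1 and Col1a2, and the means of O4-2 and O4-1 were almost equal. The 8 fibroblast markers sat at very different levels on the pluripotent arrays. Thy1 lay between 4.72 and 6.17, with 4.72 the lowest value of any of the 8 on any array. Col1a1 lay between 8.90 and 10.32 and Col1a2 between 8.37 and 9.76. The part of these markers in the levels of Osmr and Il6st was not tested.

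**Figure D3:**
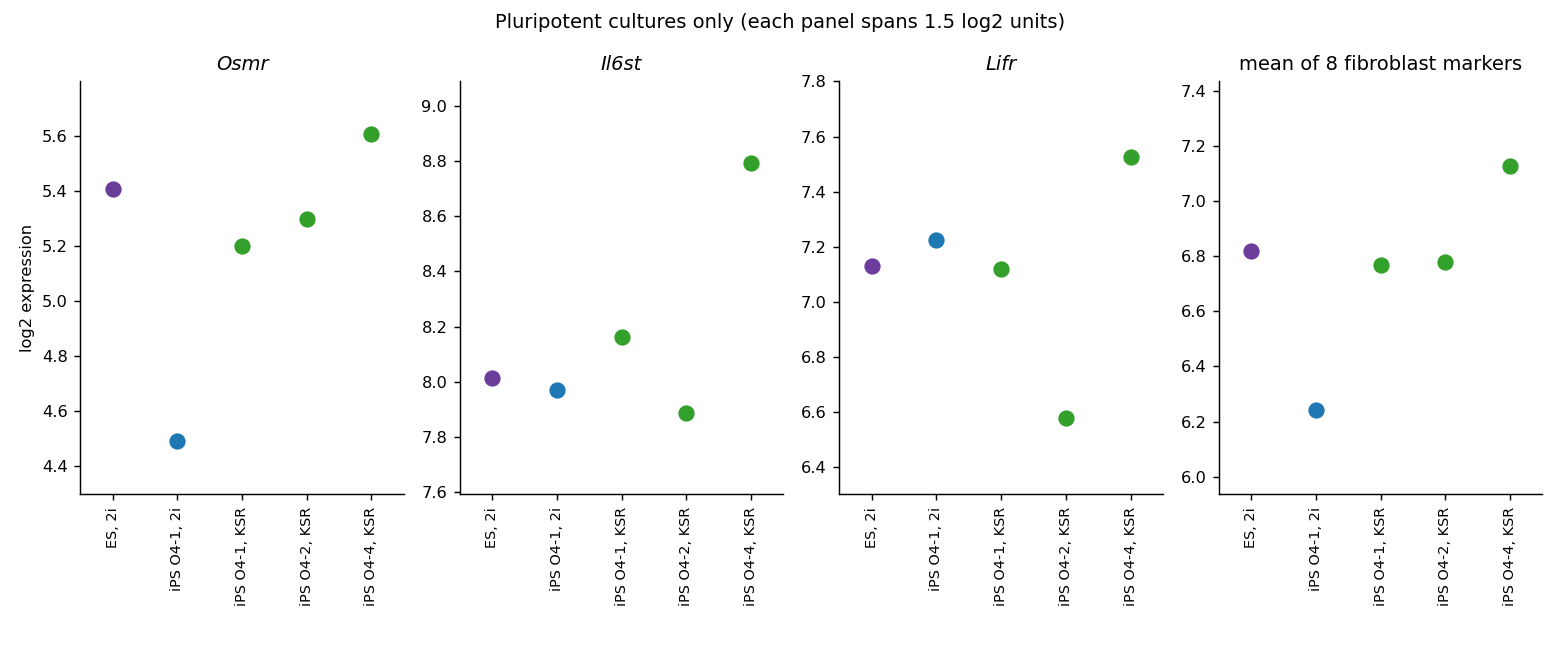
Log2 expression (y axis) of the receptor genes Osmr, Il6st and Lifr and the mean of 8 fibroblast markers on the 5 pluripotent arrays (x axis), 1 point per array. Osmr and the marker mean (not most single markers) share their order, with O4-1 in 2i lowest and O4-4 highest, while Lifr is lowest in O4-2 in KSR. The Osmr value of O4-1 in 2i lies below every array median.

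The fibroblast media were compared through MEFs in iCD1 minus MEFs in FBS, 1 array each and without a test. Lifr was 1.04 higher in iCD1 and was the gene of the 10 that differed 2-fold or more, as 2.70% of all genes did. Bcl3 was 0.61 higher, Junb 0.49, Socs3 0.34 and Stat3 0.32. Lower in iCD1 were Pim1 (-0.67), Jak1 (-0.45), Pim3 (-0.43), Osmr (-0.29) and Il6st (-0.28). Receptors and targets thus went both ways, with 5 genes higher and 5 lower in iCD1.

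The rest of the pathway was read through 52 further genes that had a probe set with 1 symbol. For the iPS lines in KSR against MEFs limma called 7 higher and 15 lower, 42.3% of those measured beside 26.4% of all genes. The list was drawn up with results of these data known, so the share is a description.

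Cytokine genes of the family passed in 0 of 6 cases, with 1 at an unadjusted p under 0.05 (limma), Clcf1. Of all genes 26.4% passed, and 39% had an unadjusted p under 0.05 (limma). Lif itself was at 4.66, 4.94 and 4.62 in the KSR lines O4-1, O4-2 and O4-4 and at 4.77 and 4.70 in MEFs in iCD1 and in FBS, a difference of 0.01 ± 0.14 (SE; limma, adjusted p = 0.981). In ES cells and O4-1 in 2i it was at 5.05 and 4.64. Of 3 other receptors 1 passed, where 26.4% of all genes did. Il6ra, the interleukin 6 receptor chain, fell by 0.73 ± 0.16 (SE; limma, adjusted p = 0.0474). The size of that fall depended on the fibroblast medium, with Il6ra at 6.37 and 5.52 in MEFs in iCD1 and in FBS. Against MEFs in iCD1 alone Il6ra differed by -1.16, and against MEFs in FBS alone by -0.30. It was at 6.08 and 5.88 in ES cells and O4-1 in 2i, above all 3 KSR lines at 5.17, 5.04 and 5.43 (limma, unadjusted p = 0.0148 and 0.0338, neither passing after adjustment).

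Among the 7 other JAK and STAT genes limma called 4 lower and 1 higher, where 14.3% and 12.1% of all genes were. Jak2, a kinase that also serves gp130 and many other cytokine receptors, was at 4.56, 4.55 and 5.13 in the KSR lines O4-1, O4-2 and O4-4 and at 7.84 and 7.32 in MEFs in iCD1 and in FBS. Jak2 fell by 2.83 ± 0.24 (SE; limma, adjusted p = 0.00936). Stat6, the transducer of interleukin 4, fell by 1.78 ± 0.16, Stat5b by 1.21 ± 0.17 and Stat5a by 0.92 ± 0.12 (SE; limma, adjusted p from 0.0105 to 0.0193). Stat5b and Stat5a lie beside Stat3 on chromosome 11 in RefSeq, so these falls were found in 3 adjacent STAT genes. Stat4, known for transducing interleukin 12 in lymphocytes, was at 5.79, 5.97 and 5.56 in the lines and at 3.43 and 3.14 in MEFs in iCD1 and in FBS. It rose by 2.48 ± 0.16 (SE; limma, adjusted p = 0.0078). Tyk2 and Stat2 were at 0.02 ± 0.14 and -0.05 ± 0.20 and did not pass.

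Inhibitors and phosphatases passed in 8 of 15 cases, 3 higher and 5 lower, where 12.1% and 14.3% of all genes were. Socs2, a SOCS gene best known for damping growth hormone signals, was at 8.66, 8.50 and 8.55 in the KSR lines O4-1, O4-2 and O4-4 and at 6.02 and 6.21 in MEFs in iCD1 and in FBS. It rose by 2.45 ± 0.10 (SE; limma, adjusted p = 0.00659), unlike Socs3. In ES cells (8.15) and in O4-1 in 2i (8.30) Socs2 lay above both MEF arrays but below every KSR line. The phosphatase gene Ptpn6, which encodes SHP-1, rose by 1.32 ± 0.10, and Ptpn11, which encodes SHP-2 and links gp130 to the ERK pathway, fell by 0.78 ± 0.10 (SE; limma, adjusted p = 0.00884 and 0.0171). Pias2 rose, and Socs5, Socs6, Pias1 and Pias3 fell, with differences from -1.40 for Socs5 to 1.198 for Pias2. Pias3 was at 7.11 and 6.27 in MEFs in iCD1 and in FBS. Its difference was -1.21 against MEFs in iCD1 alone and -0.37 against MEFs in FBS alone.

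Of 7 other STAT3-linked genes of ES cells limma called 3 higher and 0 lower, where 12.1% and 14.3% of all genes were. Called or not, 6 of these 7 were higher and 1 lower. Gbx2, a homeobox gene, rose by 1.47 ± 0.24, Pramel7 by 1.07 ± 0.21 and the zinc finger factor gene Klf5 by 1.04 ± 0.20 (SE; limma, adjusted p from 0.0264 to 0.0414). In MEFs in iCD1 and in FBS, Pramel7 was at 2.70 and 2.54 and Gbx2 at 4.41 and 4.96. These values, and those of Pramel7 in all KSR lines, lay below every array median (4.97 or more), where signal and background are not separated. Tfcp2l1, a transcription factor gene of naive cells, was at 7.37, 6.70 and 9.68 in the KSR lines O4-1, O4-2 and O4-4, at 4.33 and 4.56 in MEFs in iCD1 and in FBS, and at 9.79 and 9.10 in ES cells and O4-1 in 2i. Its difference of 3.47 ± 1.06 between KSR lines and MEFs did not pass with such spread (SE; limma, adjusted p = 0.1). Pramel7 was at 5.35 in ES cells in 2i and 3.46 in O4-1 in 2i, against 3.76, 3.36 and 3.94 in the KSR lines (limma, unadjusted p = 0.00491 for ES cells, adjusted p = 0.571). Of 14 other genes of the interleukin 6 type response limma called 5 lower and 0 higher, where 14.3% and 12.1% of all genes were. Called or not, 5 of these 14 were higher and 9 lower. Il4ra fell by 2.28 ± 0.16, Bcl6 by 1.79 ± 0.35, Timp1 by 1.70 ± 0.18, Zfp36 by 1.24 ± 0.11 and Cebpb by 0.92 ± 0.16 (SE; limma, adjusted p from 0.00824 to 0.0387).

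**Figure D4:**
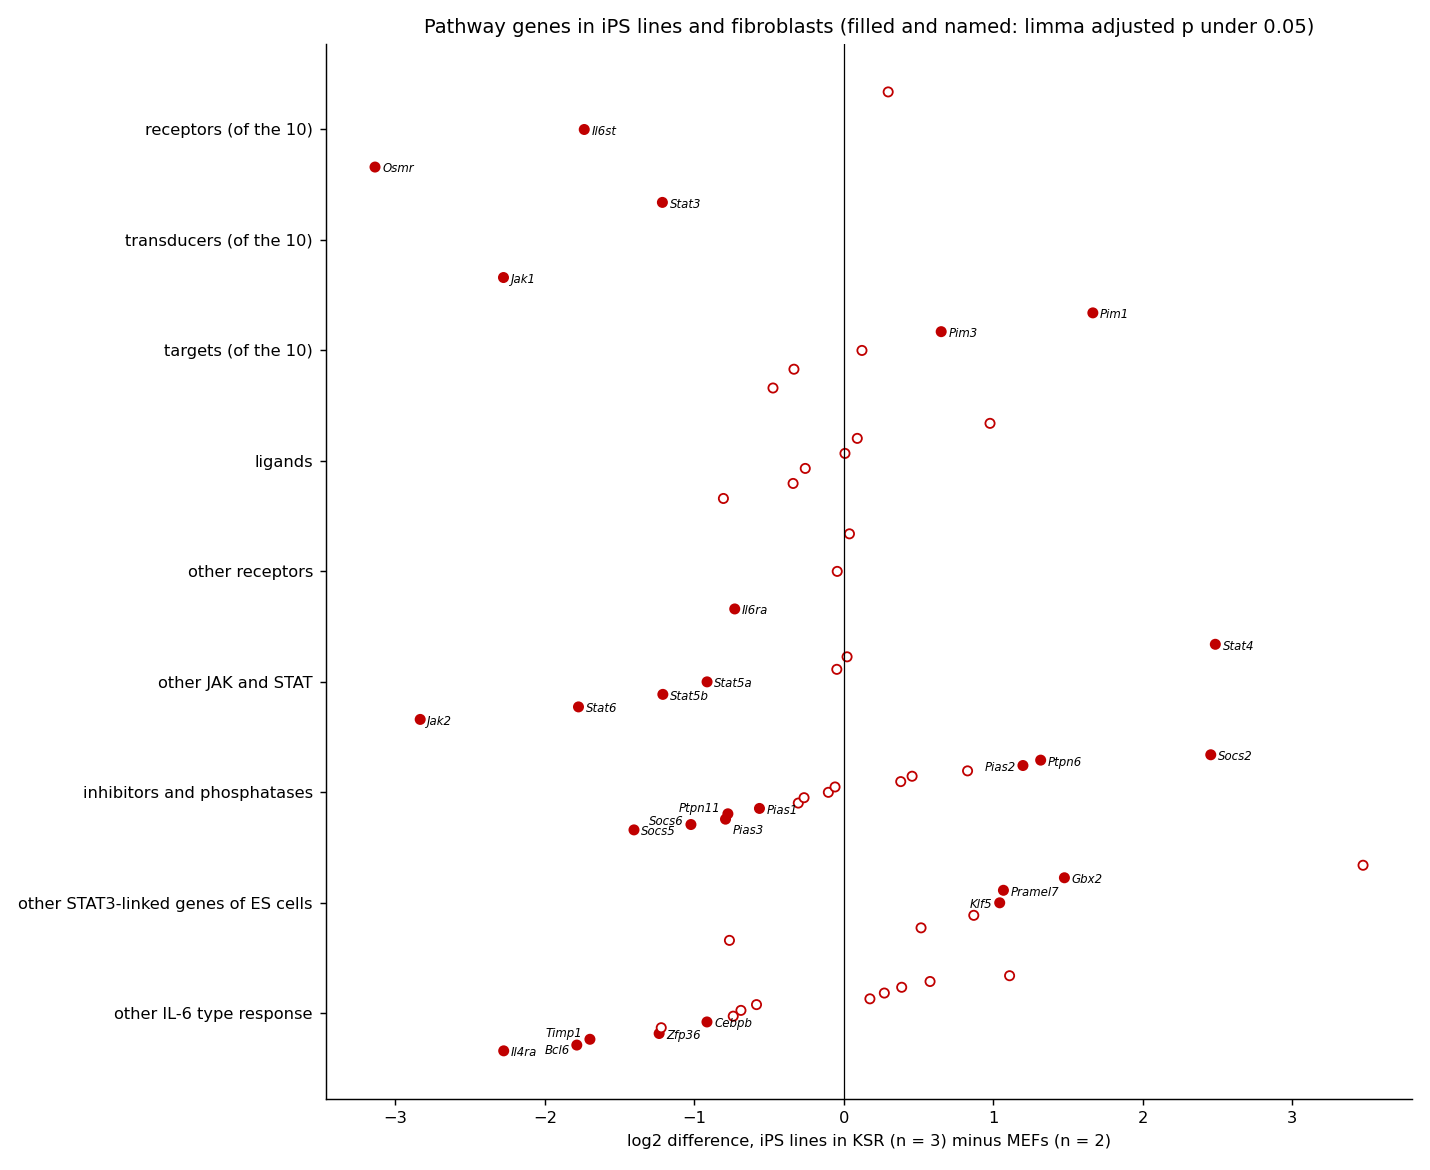
Log2 difference of the iPS lines in KSR minus MEFs (x axis) for the 10 genes and 52 further pathway genes by role (y axis), 1 point per gene. Filled, named points passed an adjusted p of 0.05 in limma, with Osmr, Jak2, Jak1 and Il4ra far to the left and Stat4, Socs2 and Pim1 to the right.

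Of the further genes that did not pass between KSR lines and MEFs, Fos differed by -1.22 ± 0.32 and Icam1 by 1.11 ± 0.27 (SE; limma, adjusted p = 0.0746 and 0.0626). Between single arrays, with no test, Fos differed by 1.504 and Il6, Ccl2 and Myc by -1.59, -1.12 and -1.69 in MEFs in iCD1 minus FBS. Il6 was low, at 1.82 and 3.41 in MEFs in iCD1 and in FBS and at 3.41 in ES cells in 2i. These values lie below every array median (4.97 or more), where signal and background are not separated. ES cells minus O4-1 cells in 2i differed by 1.12 in Fos and 1.89 in Pramel7. Line O4-1 in 2i minus KSR differed by 1.05 in Il11, 1.74 in Tfcp2l1 and -1.51 in Myc. Il6 differed by 1.06 and Cntfr differed by -1.01 in ES cells in 2i minus the mean of the KSR lines, neither passing. Il11 was at 4.83 and 3.78 in O4-1 in 2i and in KSR, also below every array median. The same holds for Pramel7 in O4-1 in 2i (3.46) and Cntfr in ES cells in 2i (4.62).

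For the 52 further genes limma called 0 in each comparison of 2i with KSR. At an unadjusted p under 0.05 there were 5 for O4-1, 8 for ES cells and 8 for both together, where 6.72%, 8.76% and 9.02% of all genes passed. Stat4 was at 4.56 in ES cells in 2i and 5.51 in O4-1 in 2i, against 5.79, 5.97 and 5.56 in the KSR lines O4-1, O4-2 and O4-4. Both 2i cultures lay below every KSR line, with a difference of -1.22 ± 0.20 for ES cells (SE; limma, unadjusted p = 0.00526, adjusted p = 0.571). Myc, a STAT3-linked growth gene, was at 5.57 and 5.46 in ES cells and O4-1 in 2i, against 6.98, 7.02 and 6.002 in the KSR lines O4-1, O4-2 and O4-4, and at 6.58 and 8.28 in MEFs in iCD1 and in FBS. Both 2i cultures lay below every KSR line, with an unadjusted p above 0.05 in both comparisons (limma, adjusted p = 0.615 for ES cells and 0.727 for O4-1).

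The genes most like 4 of the members in pattern were found by Pearson correlation over the 7 arrays among 4080 genes with an SD of at least 0.5. All pairs share the same 7 arrays, of which 2 are MEFs and 5 pluripotent cells, so this is a description only. Osmr was most like Sparc (r = 0.998, n = 7 arrays), Col5a2, St3gal1, Sytl5 and Tusc3, of which Sparc and Col5a2 encode matrix proteins. Sparc was at 9.53 and 8.98 in ES cells and O4-1 in 2i, at 9.42, 9.34 and 9.60 in the KSR lines and at 11.51 and 11.60 in MEFs in iCD1 and in FBS. Socs3 was most like Npc2 (r = 0.969), Pcdhb14, Scd1, Dusp1 and Fbln1, and Dusp1 encodes a MAP kinase phosphatase of the early response. Lifr was most like Nefl (r = 0.901), Tmem81, Mitf, Xaf1 and Apod, and Bcl3 was most like Mitf (r = 0.939), Gcnt2, Nefl, Myo5c and Flvcr2. Mitf and Nefl stood on both lists. Lifr, Bcl3 and Socs3 themselves had SDs of 0.44, 0.32 and 0.23, below the 0.5 set for the genes searched, and Osmr had 1.65. Each list holds the 5 highest r of the search, so high values were picked.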

How the data were processed

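Total RNA of each culture, 100 ng per the labels' protocols, was hybridised to Affymetrix arrays. The authors deposited log2 values for each probe set. Per the submitters' processing notes they used RMA and Partek, whose versions, like the probe set build, are not given in the sources used. Values were used as deposited, and low values are not separated from background. Of 28853 probe sets, 21789 had 1 gene symbol in the array's annotation and gave 19938 genes. All 5 groups entered 1 fit in limma 3.58.1 (R 4.3.3), as two-sided tests whose p-values were adjusted by Benjamini-Hochberg across the 19938 genes, at 0.05. The 3 KSR lines gave its 2 residual degrees of freedom, to which the prior added 1.62. Nothing says that the lines were grown separately, so p-values measure only the spread between the 3 KSR arrays, which may be technical. The spread between the MEF arrays does not enter them. All 10 members are named, as are further pathway genes that passed or differed 2-fold, and a few others (Lif, Clcf1, Tyk2, Stat2, Cntfr and marker genes) chosen after their values were seen. Members and lists were chosen with earlier results of these data known. Comparisons with the KSR lines share those arrays. Alternatives were other probe set, filter, normalization, variance and sample choices.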

Additional observations from a re-analysis of the deposited data

How the results depend on the processing

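Member calls were recomputed with other choices of probe set, filter, normalization, variance and arrays for each tested comparison, and with MEFs in FBS alone and in iCD1 alone for the KSR lines against MEFs. For that comparison, counts of called members lay between 0 and 5 when a KSR line was left out (6 with all lines), and the count was 3 with MEFs in FBS alone and 5 with MEFs in iCD1 alone, among 2968 and 3947 of all genes. A fit of 5 pluripotent against 2 MEF arrays as plain groups, chosen after seeing the data, called 6, and 33.1% of all genes. Junb passed among genes of at least median level (adjusted p = 0.043) and with all 5 pluripotent arrays in the contrast, chosen after seeing the data (0.0479; limma). Signs turned for members that were not called: against MEFs in iCD1 alone Lifr was at -0.23 and Bcl3 at -0.19, and with quantile normalization Stat3 in O4-1 in 2i was at 0.0315 and Pim1 in both 2i cultures at 0.0051. Leaving out a KSR line moved these differences: Bcl3 against MEFs from -0.0752 to 0.22; in O4-1 in 2i, Lifr from -0.10 to 0.38, Stat3 from -0.13 to 0.0774 and Pim1 from -0.20 to 0.0191; in ES cells in 2i, Lifr from -0.19 to 0.28, Osmr from -0.0425 to 0.16 and Pim1 from -0.0292 to 0.19, with -0.0179 without O4-2; and in both 2i cultures, Lifr from -0.15 to 0.33, Stat3 from -0.0533 to 0.16, Junb from -0.11 to 0.0199 and Pim1 from -0.12 to 0.11. In comparisons of single arrays the 2-fold counts of members stayed at the reported value under every alternative run. In comparisons of 2i with KSR limma called 0 of all genes under every alternative. The adjusted count of members could therefore not differ from 0 there, and it says nothing about stability. Counts at an unadjusted p under 0.05, 1 in each 2i comparison, lay between 0 and 2 for O4-1, 1 and 2 for ES cells and 0 and 1 for both together when a KSR line was left out. No paired analysis was possible because the groups share only the line O4-1, so fewer than 2 pairs exist.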

Other observations

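Markers of other cell types were read on the same arrays. Of the endothelial markers, Pecam1, an adhesion molecule gene that ES cells also express, was at 8.36 and 8.25 in ES cells and O4-1 in 2i, at 7.47, 7.20 and 8.09 in the KSR lines O4-1, O4-2 and O4-4, and at 3.89 and 4.14 in MEFs in iCD1 and in FBS. Tek was at 5.18 and 5.29 in ES cells and O4-1 in 2i, at 5.54, 5.17 and 5.12 in the KSR lines O4-1, O4-2 and O4-4 and at 3.86 and 3.90 in MEFs in iCD1 and in FBS. It rose by 1.40 in the KSR lines against MEFs (limma, adjusted p = 0.0166). The other endothelial markers went the other way, with differences of -1.09 for Kdr and -0.51 for Cdh5 (limma, adjusted p = 0.022 and 0.0323). Against MEFs in FBS alone Cdh5 differed by -0.05. Cdh5 and Kdr stayed at or below 5.12 on every array. Of the macrophage markers, Csf1r, Adgre1, Ptprc and Tyrobp lay between 3.23 and 4.97 on all arrays and C1qa between 4.97 and 5.74. Cd68 ran from 5.78 in MEFs in FBS to 7.34 in ES cells in 2i, and Lyz2 was at 6.83 in MEFs in iCD1 against 4.99 in MEFs in FBS. The mean of 4 endoderm markers lay between 5.16 and 5.54 on the pluripotent arrays and between 5.44 and 5.60 on the MEF arrays. Of these markers Gata6 alone passed between KSR lines and MEFs, with a difference of -1.42 (limma, adjusted p = 0.0181). Cntfr, the ciliary neurotrophic factor receptor chain, differed among the KSR lines, at 5.61, 6.76 and 4.53 in O4-1, O4-2 and O4-4.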
